A study of Mus musculus with 48 samples.

Results

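The folate cycle enzymes followed here are the products of 8 genes, *Mthfd1*, *Mthfd1l*, *Mthfd2*, *Shmt1*, *Shmt2*, *Tyms*, *Aldh1l1* and *Ftcd*, measured in liver and colon of mice whose dams, and who themselves, had received more or less selenium (Se) and folate. The members were all probes whose transcript accession belongs to one of these genes, which gave 11 of the 41174 probes on the array: 2 each for *Mthfd1*, *Shmt1* and *Tyms*, and 1 for each of the other 5 genes. All animals were C57/BL6 offspring aged 12 weeks on a high-fat diet, and the first letter of a group (HH, HL, LH or LL) gives the dam's diet during gestation and lactation and the second the offspring's own diet after weaning. Diet H was supplemented and diet L marginally deficient in both Se and folate, so that an effect of one nutrient cannot be told apart from an effect of the other. Liver was measured in 5 HH, 6 HL, 6 LH and 6 LL mice, and colon in 6 mice of each group. The genes lie, on build GRCm38.p6, at chr12:76254406-76319820 (*Mthfd1*), chr10:3972892-4167081 (*Mthfd1l*), chr6:83305704-83326011 (*Mthfd2*), chr11:60788897-60811265 (*Shmt1*), chr10:127517123-127522444 (*Shmt2*), chr5:30038546-30073645 (*Tyms*), chr6:90550768-90599171 (*Aldh1l1*) and chr10:76575648-76590338 (*Ftcd*). The labels do not say how many litters the offspring came from or which colon belongs with which liver.

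Folate carries one-carbon units, and these enzymes load, convert and spend them. SHMT1 in the cytosol and SHMT2 in mitochondria take a carbon from serine. MTHFD2 and MTHFD1L carry that carbon through the mitochondria to formate, and MTHFD1 reloads formate onto folate in the cytosol. TYMS spends a carbon to make thymidylate for DNA synthesis, ALDH1L1 removes surplus carbon by oxidising formyl-folate, and FTCD feeds in carbon from the breakdown of histidine. The liver is the main store of folate and the main site of histidine breakdown, whereas the colon epithelium is continually renewed by dividing cells.

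Each value below is the log2 ratio of the mouse's RNA, labelled with Cy3, over a common reference labelled with Cy5 on every array. The study's methods describe that reference as pooled intestinal and liver RNA and the deposited design text as RNA of a whole pregnant mouse with its foetus. A ratio can be compared between mice for one probe and not between probes. Between 55.1 and 66% of the spots on the liver arrays and between 66.8 and 73.7% on the colon arrays were well above background in Cy3. The 11 probes were well above background on all 24 liver and 24 colon arrays, apart from *Mthfd2*, which was so on 22 of the liver arrays, and none was saturated. In 7 of the 47 samples the X-inactivation transcript *Xist* gave a log2 Cy3 signal over 9, although the methods describe the offspring as male. They were HL liver replicate 2 and, in the colon, HH replicates 1 and 5, HL replicate 5 and LL replicates 1, 3 and 5. The Y-linked *Eif2s3y* had a log2 Cy3 signal of 6.29 in that liver. In the colon it was 6.30 in HL replicate 5 and 7.37 and 6.38 in LL replicates 1 and 3. It was 10.70 and 10.09 in colon HH replicates 1 and 5 and 11.17 in colon LL replicate 5, which thus had both transcripts. Hepatocyte markers were higher in liver (5 of 5 measured genes), and those of colon epithelium (7 of 7) and smooth muscle (6 of 6) higher in colon, which fits the labelled tissues. Markers of other tissues were uneven between samples. The mean ratio of 4 exocrine pancreas genes reached 1.294 in the highest HL liver, beside an HL median of -2.255. That of 3 adipocyte genes reached 1.656 in the highest LH liver, beside an LH median of -1.102. In the colons it ran from -0.87 (LH) to 3.182 (LL). The part of such tissue in the member values was not tested. Because these are bulk samples, more cells of a type and more RNA per cell cannot be told apart.

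All 8 genes differed between the tissues. *Ftcd*, *Aldh1l1*, *Shmt2*, *Shmt1* and *Mthfd1* were higher in liver, and *Mthfd1l*, *Mthfd2* and *Tyms* were higher in colon. All 11 probes passed the threshold used throughout, a fold change over 1.5 with a Benjamini-Hochberg FDR under 0.05 in limma (all groups of both tissues in 1 fit with slide as a random block). So did 30.4% of all probes tested, 14.6% higher and 15.7% lower in liver. For each of the 11 probes the liver mice and the colon mice did not overlap, which held for 23.2% of all probes.

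*Ftcd* had the widest gap of the 8 genes. Its ratio ran from 1.81 to 2.68 over the 23 livers, with a median of 2.08, and from -5.06 to -4.00 over the 24 colons, with a median of -4.68. The mean difference was 6.75 ± 0.10 (SE) on the log2 scale, or 107-fold (adjusted p = 5.22e-43 in limma). *Aldh1l1* came next, with 1.79 ± 0.24 (SD, n = 23) in liver and -3.13 ± 0.30 (SD, n = 24) in colon, a 30.3-fold difference (adjusted p = 4.06e-38). Both enzymes dispose of folate-bound carbon or take it from amino acid breakdown, and both lay far below the reference in every colon.

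The serine hydroxymethyltransferases were both liver-high. *Shmt2* stood at 1.48 ± 0.22 (SD, n = 23) in liver and at -1.40 ± 0.22 (SD, n = 24) in colon, which is 7.37-fold (adjusted p = 1.09e-33). *Shmt1* was 5.49-fold higher in liver by its brighter probe (A_52_P673499) and 3.42-fold by its dimmer one (A_52_P120055). *Mthfd1*, the cytosolic 3-in-1 enzyme, was 2.99-fold higher by its brighter probe (A_51_P392928) and 2.86-fold by its dimmer one (A_52_P282279). The probes of a gene had the same direction, and for *Shmt1* they differed in size.

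Of the mitochondrial pair that follows SHMT2, both genes ran the other way. *Mthfd1l* had a median of -1.60 in liver (range -2.02 to -0.13) and of 0.85 in colon (range 0.54 to 1.24), and was 5.44-fold lower in liver (log2 difference -2.44 ± 0.10 SE, adjusted p = 2e-25). *Mthfd2* was 2.14-fold lower in liver (-1.10 ± 0.08 SE, adjusted p = 5.57e-16). It had no value in the colon of HL replicate 4, whose spot was marked as faulty. *Tyms*, the enzyme of thymidylate synthesis, was 2.07-fold lower in liver by its brighter probe (A_51_P398366) and 2.14-fold by its dimmer one (A_52_P292651). In the same comparison, 9 of the 10 measured genes of DNA replication and proliferation passed the threshold as lower in liver and none as higher. At an unadjusted p under 0.05 in limma 1 of the 10 was higher. The median log2 difference was -1.80 beside 0.01 over all probes. Of the genes of this list, the proliferation marker *Mki67* differed by -3.32 and the helicase subunit *Mcm6* by -3.72.

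**Figure D1:**
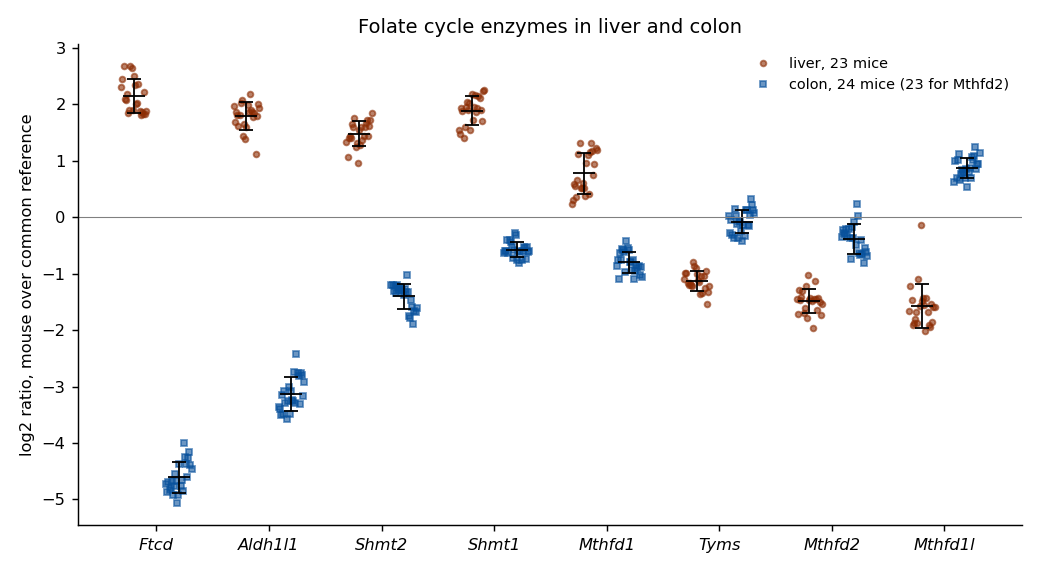
Log2 ratio of mouse over common reference for the 8 genes (brighter probe where there are 2) in each liver (circles) and each colon (squares), with the mean and SD as bars. *Ftcd*, *Aldh1l1*, *Shmt2*, *Shmt1* and *Mthfd1* were higher in every liver than in any colon, and *Tyms*, *Mthfd2* and *Mthfd1l* lower; levels of different genes are not on a common scale.

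Of 15 other folate enzymes measured, 7 passed the threshold as higher in liver and none as lower, beside 14.6% and 15.7% of all probes. At an unadjusted p under 0.05 in limma 7 were higher and 3 lower. The median log2 difference was 0.07. The largest differences belonged to mitochondrial enzymes that strip carbon from glycine and its derivatives, *Dmgdh* at 7.49, *Gldc* at 5.84 and *Sardh* at 4.80. *Mtr*, which makes methionine, differed by -0.07 and did not pass the threshold. Of 7 genes of folate uptake and storage 4 passed as higher and 2 as lower in liver. *Fpgs*, which adds the glutamate tail that retains folate in cells, differed by 2.98, the proton-coupled carrier *Slc46a1* by 2.35 and the reduced folate carrier *Slc19a1* by -0.88. Of 11 genes of serine synthesis and ATF4 targets 4 passed as higher and 3 as lower. The lower ones were *Asns* (-4.23), *Phgdh* (-2.99) and *Psat1* (-1.30), the last 2 of which make serine, the substrate of SHMT.

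In none of the 18 diet comparisons (6 pairs of groups, dam diet, offspring diet and their interaction, in each tissue) did any of the 11 probes pass the threshold, as was true of all other probes (0% called). At an unadjusted p under 0.05 there were 0 to 3 of 11 members in a comparison. The counts and values that follow are therefore descriptions of the largest differences among the members, none of which survived correction for the number of probes.

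The comparison HH *vs.* LH in liver sets offspring of supplemented dams against offspring of deficient dams, where both ate the supplemented diet after weaning. The LH mice also changed diet at weaning, so the dam's diet and that change cannot be told apart in it. The largest differences among the members were those of *Shmt1* and *Mthfd1*, whose means were higher in LH without passing the FDR threshold. By the dimmer *Shmt1* probe the 5 HH livers had 1.17, 1.11, 1.46, 1.11 and 1.16, and the 6 LH livers had 1.66 at the lowest, 1.90 at the median and 2.29 at the highest. The groups did not overlap, as for 1.54% of all probes. The difference was 0.74 ± 0.22 (SE), or 1.67-fold (95% confidence interval 0.29 to 1.19, adjusted p = 0.237 in limma). By the brighter probe the HH livers ran from 1.54 to 1.94 and the LH livers from 1.90 to 2.26, a difference of 0.34 (0.06 to 0.62, adjusted p = 0.331). LH was the higher array on 6 of 6 slides by either probe, where the HH arrays of 2 of the slides are of 1 mouse (replicate 3), so that such tallies in liver rest on 5 HH mice. The place of an array on its slide took 30.9% of the variance of the dimmer probe over the 23 livers, and with that place as a block the difference was 0.62 (adjusted p = 0.393).

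*Mthfd1* gave a like picture with more overlap. By its dimmer probe the HH livers had 0.15, 0.30, 0.69, 0.05 and 0.27, and the LH livers ran from 0.45 to 1.44 with a median of 1.28. The difference was 0.80 ± 0.28 (SE), or 1.75-fold (0.22 to 1.38, adjusted p = 0.279), and 0.68 (adjusted p = 0.458) with the place on the slide as a block. The brighter probe differed by 0.35, with a 95% confidence interval of -0.08 to 0.77. LH was again higher on 6 of 6 slides by both probes. For both genes the dimmer probe gave the larger log2 difference, although the probes of a gene carry the same accession.

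These were 3 of 11 member probes at an unadjusted p under 0.05, beside 12% of all probes in this comparison. *Shmt2* differed by 0.20 (95% interval -0.07 to 0.47) and was higher in LH on 6 of 6 slides. *Mthfd2* differed by -0.20 (-0.42 to 0.03) and *Mthfd1l* by -0.24 (-0.69 to 0.21), which was 0.06 without HH replicate 3. *Tyms*, *Aldh1l1* and *Ftcd* differed by -0.06 to 0.05 with intervals that reached from -0.33 to 0.42. None of the 7 uptake and storage genes had an unadjusted p under 0.05. The hepatocyte list also stood higher in LH: its mean ratio over 5 genes ran from 1.53 to 1.92 in HH and from 1.75 to 2.31 in LH, with a median difference of 0.23 and 1 of 5 genes, *Cyp2e1* (0.83), at p under 0.05. The leukocyte list ran from 0.33 to 1.19 in HH and from 0.27 to 0.83 in LH. Of the proliferation list 4 of 10 genes were lower and 1 higher at p under 0.05, with a median of -0.25, and without HH replicate 3 these were 1 and 0 with a median of -0.12. The part of these shifts in the *Shmt1* and *Mthfd1* differences was not tested.

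**Figure D2:**
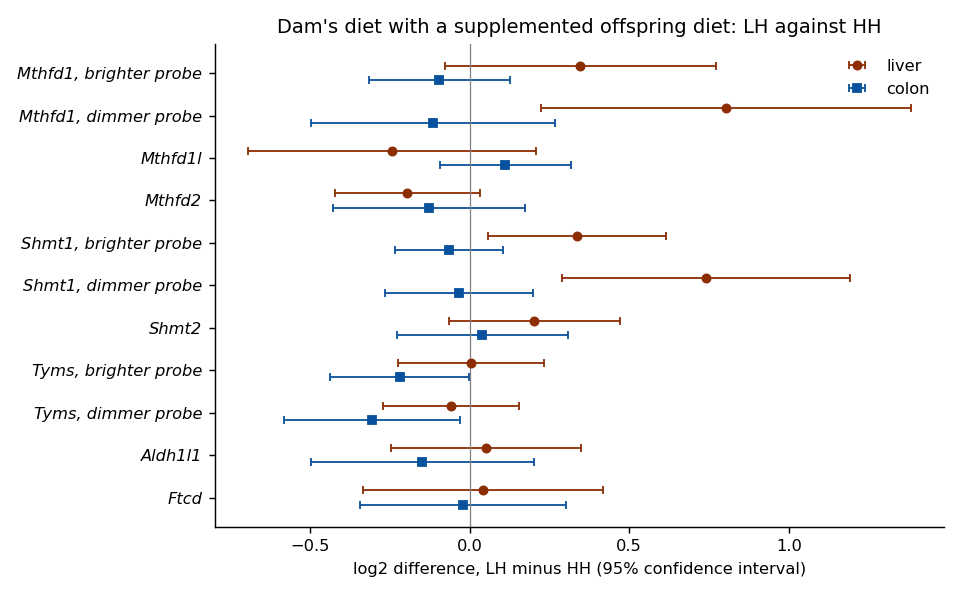
Log2 difference LH minus HH with its 95% confidence interval for the 11 probes, in liver (circles) and colon (squares). The liver intervals of both *Shmt1* probes and of the dimmer *Mthfd1* probe lie above 0, and the colon intervals of both *Tyms* probes lie below 0; none passed the FDR threshold.

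The 2 genes that stood higher together in LH livers are shown with the 300 bases around their start site (250 before and 50 after, RefSeq annotation, build GRCm38.p6, printed along the strand of the gene; for *Mthfd1* the start site is that of a transcript beginning 826 bases inside the span given above), and *Ftcd* is added as the gene with the widest tissue gap. Capitals mark the GC box GGGCGG, the CCAAT box and the TATA box TATAAA, read on either strand.
*Shmt1*, chr11:60811216-60811515, minus strand: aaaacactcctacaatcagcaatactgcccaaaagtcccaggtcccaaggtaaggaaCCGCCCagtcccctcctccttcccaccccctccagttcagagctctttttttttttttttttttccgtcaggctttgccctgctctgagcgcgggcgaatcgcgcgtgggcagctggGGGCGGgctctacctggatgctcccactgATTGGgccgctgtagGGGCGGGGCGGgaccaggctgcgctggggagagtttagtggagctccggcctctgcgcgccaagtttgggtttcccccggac
*Mthfd1*, chr12:76254982-76255281, plus strand: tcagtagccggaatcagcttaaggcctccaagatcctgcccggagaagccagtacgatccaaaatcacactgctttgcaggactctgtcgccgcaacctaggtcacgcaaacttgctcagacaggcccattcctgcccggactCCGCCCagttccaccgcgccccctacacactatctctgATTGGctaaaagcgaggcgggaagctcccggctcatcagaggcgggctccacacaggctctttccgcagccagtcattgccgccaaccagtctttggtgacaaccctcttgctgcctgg
*Ftcd*, chr10:76575398-76575697, plus strand: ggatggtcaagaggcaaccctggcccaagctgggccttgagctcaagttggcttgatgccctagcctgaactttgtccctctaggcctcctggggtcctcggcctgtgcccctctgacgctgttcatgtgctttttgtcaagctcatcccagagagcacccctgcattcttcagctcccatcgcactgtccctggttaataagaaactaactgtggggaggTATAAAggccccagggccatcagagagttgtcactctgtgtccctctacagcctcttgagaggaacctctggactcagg
The *Shmt1* window held 4 GGGCGG, 2 of them overlapping, and 1 CCAAT, and the *Mthfd1* window held 1 of each. The *Ftcd* window held neither and had a TATAAA. Both boxes were also in the *Aldh1l1* window, with 1 GGGCGG and 2 CCAAT. The *Mthfd2* window held 3 CCAAT, those of *Mthfd1l* and *Tyms* held 1 GGGCGG each, and that of *Shmt2* held neither. Of 32841 such windows over all genes, 35.7% held GGGCGG, 37.4% CCAAT and 13.6% TATAAA. CpG dinucleotides numbered 17 for *Shmt1*, 16 for *Mthfd1* and 3 for *Ftcd*, beside 8 to 15 for the other 5 genes and a median of 7 over all windows. The E2F motifs TTTGGCGC (0.515% of all windows) and TTTCCCGC (1.07%), the ATF4 motif TGATGNAA (3.97%), the cyclic AMP response element TGACGTCA (1.79%) and the HNF4A motif CAAAGTCCA (0.475%), searched in the same way, were in none of the 8 windows, and the E-box CACGTG was in that of *Tyms* (7.15% of all windows). For *Mthfd2* and *Mthfd1l* the start site used lies 8407 and 183 bases inside the span given above. A motif absent from those windows may still be present at the outer end of the span, which was not searched. Such matches are letters in a window and not evidence of binding.

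In LL, dam and offspring both had the deficient diet. In the order of the liver means, HH (1.70) was followed by LL (1.84), HL (1.95) and LH (2.03) for the brighter *Shmt1* probe. No 2 neighbours in that order differed at p under 0.05. The interaction of dam and offspring diet, which sets the effect of the offspring's diet under deficient dams against that under supplemented dams, was -0.45 ± 0.19 (SE, adjusted p = 0.375) for the brighter and -0.85 ± 0.30 (SE, adjusted p = 0.322) for the dimmer *Shmt1* probe. For the dimmer *Mthfd1* probe it was -0.98 ± 0.39 (SE, adjusted p = 0.353). These 3 of 11 compare with 11.3% of all probes. Within HL and LL the livers were spread widely. The 6 HL livers ran from 0.99 to 2.29 and the 6 LL livers from 0.96 to 2.11 by the dimmer *Shmt1* probe, whereas the 5 HH livers spanned 1.11 to 1.46. Averaged over the offspring's diet, the difference by dam diet was 0.31 ± 0.15 (SE, adjusted p = 0.999) for the dimmer *Shmt1* probe, the only 1 of 11 members at an unadjusted p under 0.05 (4.14% of all probes), and it ran from 0.24 to 0.38 with each mouse left out in turn. It kept such a p in 14 of 39 alternatives, and with slide as a block it was 0.28 with an unadjusted p over 0.05.

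In HH *vs.* LH colon, *Shmt1* differed by -0.07 (95% interval -0.23 to 0.10) and *Mthfd1* by -0.10 (-0.32 to 0.13) with the brighter probes. The difference between the tissues in this comparison was tested in the fit of all groups. It was 0.39 ± 0.14 (SE, adjusted p = 0.302) and 0.75 ± 0.23 (SE, adjusted p = 0.24) for the 2 *Shmt1* probes, and 0.42 ± 0.20 (SE, adjusted p = 0.416) and 0.90 ± 0.31 (SE, adjusted p = 0.276) for the 2 *Mthfd1* probes. These 4 of 11 members had a p under 0.05, as had 11.3% of all probes, and none passed after adjustment. For dam diet averaged over the offspring's diet, 2 of 11 members (5.69% of all probes) differed between the tissues at p under 0.05, the dimmer *Shmt1* probe by 0.36 and *Mthfd1l* by -0.36 (adjusted p = 0.857 for each). The latter was -0.22 without HH liver replicate 3.

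*Mthfd2*, the mitochondrial dehydrogenase, was the member with the largest difference by the offspring's diet in liver when averaged over the dam's diet. The HH livers had -1.44, -1.30, -1.03, -1.44 and -1.13, the HL livers ran from -1.74 to -1.44 with a median of -1.59, and the LL livers ran from -1.96 to -1.41 with a median of -1.49. The groups overlapped at the lower end of HH. Relative to HH, it differed by -0.32 ± 0.11 (SE, adjusted p = 0.952) in HL and by -0.32 ± 0.11 (SE, adjusted p = 1) in LL, and LL was lower on 6 of 6 slides and HL on 5 of 6. The highest HH value is that of replicate 3, the mouse with arrays on 2 slides, and without it the differences were -0.26 in HL and -0.26 in LL. Averaged over dam diet, the deficient offspring diet went with -0.22 ± 0.08 (SE, adjusted p = 1), the only 1 of 11 members at an unadjusted p under 0.05 beside 1.37% of all probes. In HH *vs.* HL there were 2 of 11, the other being the dimmer *Shmt1* probe (0.47), beside 4.38% of all probes, and in HH *vs.* LL 1 of 11 beside 3.43%. The order of means was LL (-1.59), HL (-1.58), LH (-1.46) and HH (-1.27), and no 2 neighbours differed at p under 0.05. *Mthfd2* was also the dimmest member. Without the repair of the local background described under processing, HL minus HH was -0.10 and LL minus HH was -0.53, and with the Cy3 channel alone they were -0.17 and -0.18.

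Genes of serine synthesis and ATF4 targets, of which *Mthfd2* is a known companion, gave 0 of 11 at p under 0.05 for offspring diet, with a median of -0.03. In HH *vs.* HL 1 of 11 was lower, *Ddit3* (-0.37, adjusted p = 0.952). Among genes of DNA replication and proliferation, in HH *vs.* LL 4 of 10 genes were lower at p under 0.05, among them the cyclin *Ccnb1* (-0.59) and *Mcm2* (-0.34), and the median was -0.27 beside -0.01 over all probes. In HH *vs.* HL 3 of 10 were lower, with a median of -0.22, and none passed the FDR threshold. HH replicate 3 had the highest mean of this list among all livers and entered each of these differences; without it 2 of 10 were lower in HH *vs.* LL, with a median of -0.14, and 0 of 10 in HH *vs.* HL, with a median of -0.10. The part of that list in the *Mthfd2* difference was not tested.

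**Figure D3:**
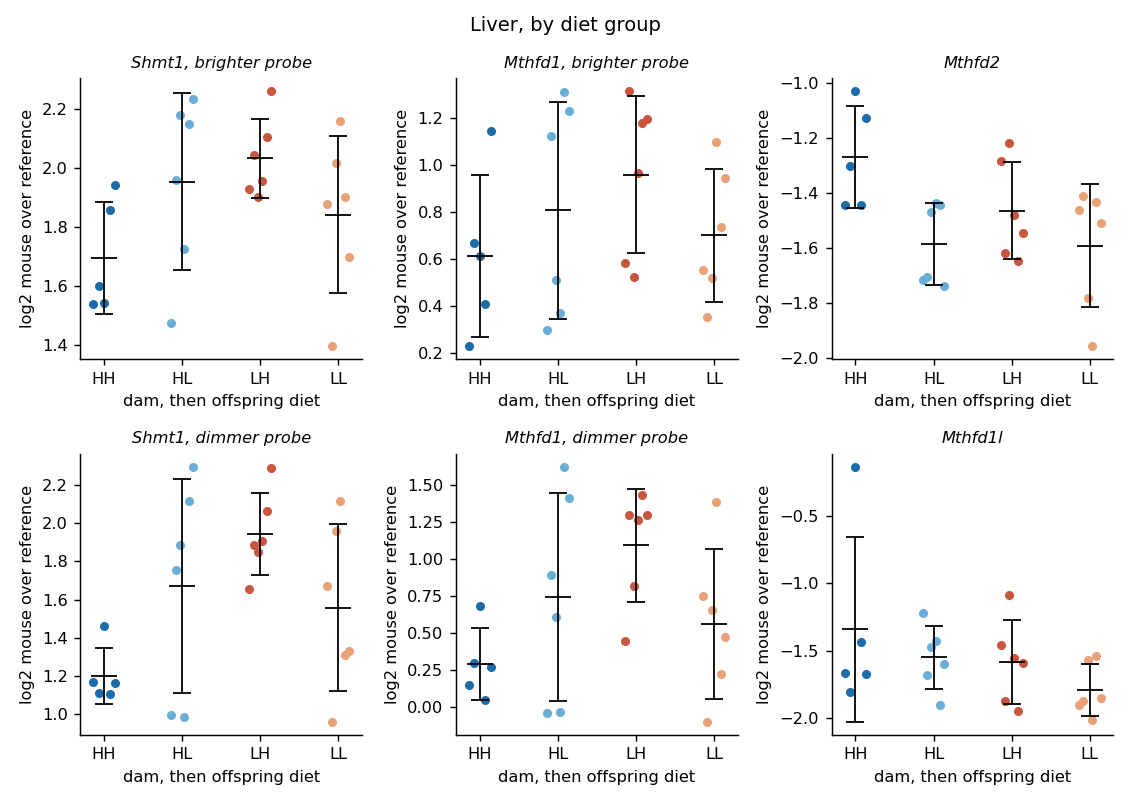
Log2 ratio of mouse over reference in each liver by diet group (dam, then offspring) for both probes of *Shmt1* and *Mthfd1*, for *Mthfd2* and for *Mthfd1l*, with the mean and SD as bars and a separate axis range in each panel. The HH livers lie below all LH livers for the dimmer *Shmt1* probe, the HH mean is the highest of the 4 for *Mthfd2*, and 1 HH liver stands apart for *Mthfd1l*.

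*Mthfd1l*, which releases formate from mitochondria, was set apart in 1 liver. The HH livers had -1.67, -1.80, -0.13, -1.43 and -1.67, and all 22 other livers lay between -2.02 and -1.09. The exception is the HH mouse that was hybridised on 2 arrays, which read -0.10 and -0.17. The largest group difference was -0.45 for LL against HH, with an interval of -0.90 to 0.00, and without this mouse it was -0.15. The same mouse had the highest mean of all 23 livers for the proliferation list (-1.46 against -2.37 to -1.90 in the others) and for the leukocyte list (1.19 against 0.27 to 1.06). The part of these in its *Mthfd1l* value was not tested.

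In the colon, the members at an unadjusted p under 0.05 were probes of *Tyms*. By the brighter probe the HH colons ran from -0.08 to 0.21 with a median of 0.12, the HL colons from -0.42 to 0.13, the LH colons from -0.36 to 0.07 and the LL colons from -0.36 to 0.32. All 4 groups overlapped. Relative to HH it differed by -0.22 ± 0.11 (SE) in LH, by -0.25 ± 0.11 (SE) in HL and by -0.21 ± 0.11 (SE) in LL, all with an adjusted p of 1. The dimmer probe gave -0.31, -0.24 and -0.23. HH was the higher array on 6 of 6 slides against LH and on 6 of 6 against HL with both probes. The 3 groups share the same HH mice, and the other groups did not differ among themselves by more than 0.08. These were 2 of 11 members in HH *vs.* LH (3.25% of all probes) and 1 of 11 in HH *vs.* HL (1.46%). The proliferation list had a median difference from HH of -0.21 in LH, with *Ccnb1* (-0.30) and *Cdk1* (-0.34) at p under 0.05, and of -0.17 in HL, with *Ccnb1* (-0.33). In LL the median was -0.10, with 1 of 10 genes lower at p under 0.05 (1.71% of all probes in either direction). Its mean ran from -0.22 to 0.09 in HH, from -0.56 to -0.17 in LH, from -0.44 to -0.12 in HL and from -0.35 to 0.10 in LL. Without the 6 colons with *Xist* the brighter *Tyms* probe gave -0.23 in LH and -0.26 in HL, each with an unadjusted p over 0.05. With each mouse left out in turn the difference in LH ran from -0.26 to -0.17, the smallest without LH replicate 3.

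**Figure D4:**
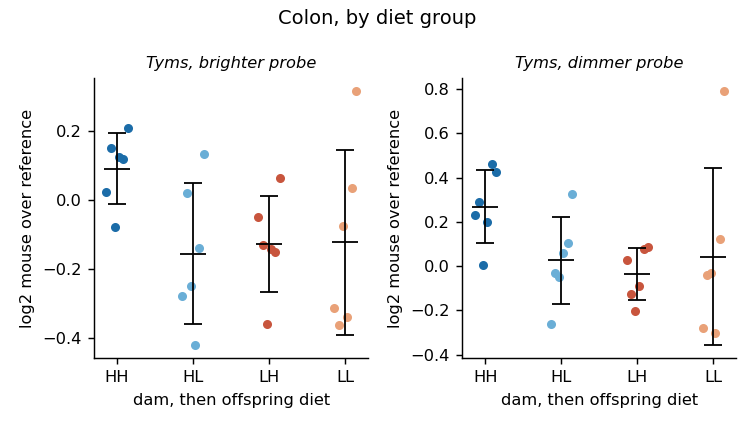
Log2 ratio of mouse over reference for the 2 *Tyms* probes in each colon by diet group, with the mean and SD as bars. The HH mean is the highest of the 4 by either probe, at 0.09 for the brighter and 0.27 for the dimmer, and the groups overlap.

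For *Aldh1l1*, *Ftcd* and *Shmt2* no diet comparison reached an unadjusted p under 0.05, which does not show that their levels were equal. *Ftcd* in liver had group means of 2.13, 2.12, 2.17 and 2.15 in HH, HL, LH and LL, with SDs of 0.22 to 0.40, and HL minus HH had an interval of -0.38 to 0.37. In colon *Shmt2* had means of -1.41, -1.44, -1.37 and -1.40. The interval of LH minus HH for colon *Shmt2* was -0.23 to 0.31.

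Slide took a larger share of the variance than diet for most members, although with 6 slides and 4 diet groups slide takes more by its number of levels alone. Each slide carried 1 array of each diet group of 1 tissue. In colon *Shmt2*, 82.7% of the variance over 24 mice went with slide and 1.2% with diet. Its slide means were -1.31 to -1.23 on 4 of the slides and -1.65 and -1.71 on the other 2, and *Ftcd* lay on those 2 slides at -4.31 and -4.32 against -4.80 to -4.66. Over the members, slide took 31.6 to 82.7% in colon and 12.9 to 65.8% in liver, beside medians of 40.5 and 28.9% over all probes, for which the medians for diet were 7.3 and 11.4%. Diet took 0.7 to 24.6% in colon, the most for *Tyms*, and 0.3 to 34.3% in liver, where the dimmer *Shmt1* probe (34.3% for diet, 21.5% for slide) and *Mthfd2* (33.5% and 12.9%) were the members with more for diet than for slide, together with the dimmer *Mthfd1* probe (27.9% and 17.2%).

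**Figure D5:**
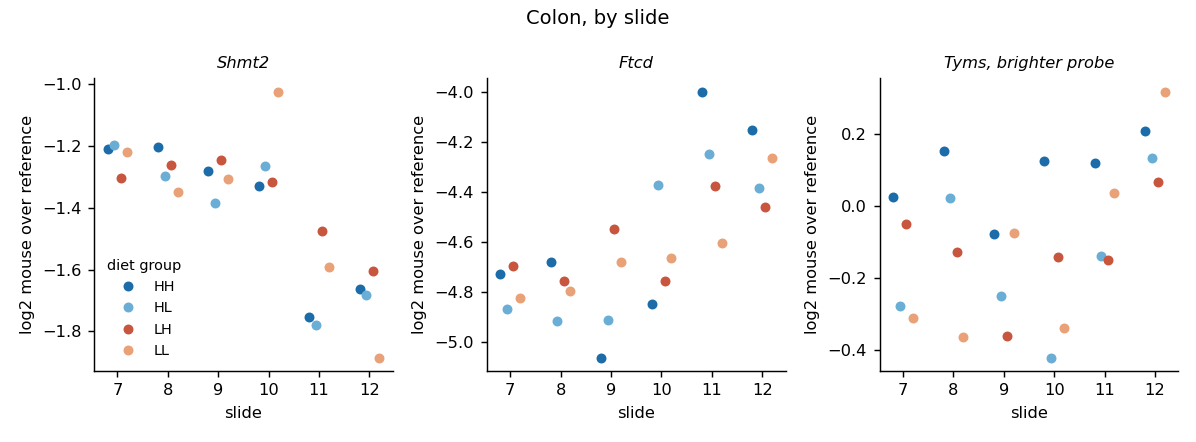
Log2 ratio of mouse over reference in each colon by slide for *Shmt2*, *Ftcd* and the brighter *Tyms* probe, coloured by diet group. *Shmt2* is lower and *Ftcd* higher on slides 11 and 12 than on most arrays of slides 7 to 10, in all diet groups, and the HH array is above the LH array for *Tyms* on each slide.

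Ratios of the members were also related from mouse to mouse, in both directions, and the relations were computed over mice and again within slides. Of 28 pairs of the 8 genes (brighter probes), 11 in liver and 10 in colon had a permutation p under 0.05 after Benjamini-Hochberg adjustment over all 56, with r from -0.72 to 0.73 in liver and from -0.74 to 0.75 in colon. Over the 28 pairs r was above 0 in 12 in liver and 13 in colon, with medians of -0.20 and -0.12. The share of pairs of all genes that would pass was not computed, so these counts have no background beside them. In liver *Mthfd1* correlated with *Shmt1* (r = 0.69, p = 0.00036, adjusted p = 0.00294; rho = 0.70, p = 0.00038; n = 23) and with *Shmt2* (r = 0.73, p = 6e-05, adjusted p = 0.00126; rho = 0.77, p = 5e-05). These permutations take no account of slide. Within slides, r was between -0.3 and 0.3 for 3 of the 11 liver pairs and 6 of the 10 colon pairs, and 2 of the latter changed sign. Without the 2 mice farthest from the median *Mthfd1* ratio r was 0.67 and 0.69, and within slides it was 0.76 and 0.53. In colon *Shmt2* correlated inversely with *Ftcd* (r = -0.73, p = 7e-05; rho = -0.53, p = 0.00805; n = 24), but within slides r was -0.15. For *Aldh1l1* and *Ftcd* in colon r was 0.75 (p = 2e-05; rho = 0.67, p = 0.00045), with 0.72 without the 2 farthest mice and 0.50 within slides. All values of 1 mouse share an array, a labelling and a normalisation.

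Over all mice of a tissue, the dimmer probes of *Shmt1* and *Mthfd1* had a higher r with each other than with the brighter probe of their own gene, which in colon did not hold within slides. In liver their r was 0.93 over 23 mice (rho = 0.92; p = 1e-05 for each, the smallest the permutations can give) and 0.95 within slides. The 2 *Shmt1* probes had r = 0.86 and the 2 *Mthfd1* probes r = 0.81 (p = 1e-05 and 3e-05; rho = 0.88 and 0.80). In colon the dimmer pair had r = 0.89 (p = 1e-05; rho = 0.93), whereas the 2 *Mthfd1* probes had r = 0.17 (p = 0.419; rho = 0.10, p = 0.651) over all 24 mice and r = 0.87 within slides. The 2 *Shmt1* probes had r = 0.43 in colon (p = 0.0362; rho = 0.40, p = 0.0543) and 0.81 within slides, beside 0.78 within slides for the dimmer pair. The difference between these correlations was not tested.

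The genes outside the list whose ratios were most like each member's, among the 16932 named probes above background on all liver arrays and 20321 on all colon arrays, differed between the tissues. For colon *Tyms* they were *Trip13* (r = 0.87), *Mcm8* (0.87) and *Pclaf* (0.87), over 24 mice. For liver *Mthfd1l* they were *Cdkn3* (0.89), *Tnfaip3* (0.86) and *Pfkp* (0.86), and for liver *Mthfd2* *Kdelr3* (0.84), *Tpx2* (0.81) and *Pacc1* (0.79), over 23 mice. Liver *Shmt1* was most like *Mtarc2* (0.90), *Psmd2* (0.89) and *Fdft1* (0.89), and liver *Mthfd1* like *Fig4* (0.93), *Tm9sf4* (0.93) and *Srr* (0.91), the last of which encodes serine racemase. Colon *Ftcd* was most like *Kng1* (0.98), *Slc17a3* (0.96) and *Cyp4f15* (0.95), and colon *Aldh1l1* was like *Nr1h3* (0.90), *C1qtnf12* (0.89) and *Phgdh* (0.88). These are the highest of many correlations, with slide among their sources, and are given as a description.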

How the data were processed

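The authors deposited unnormalised scanner intensities of spots and surrounding background for each array, dye-normalised intensities, and log2 ratios (reference over mouse) that matched loess of the raw intensities without background correction. The study names limma and, per the labels, R 3.0.2. Here R 4.3.3 with limma 3.58.1, and Python 3.11.15 with matplotlib 3.10.9 for figures, were used. Where a local background was at least as bright as its spot, it was set to the array's median background; normexp (offset 50) and global loess followed, spots marked as non-uniform or as outliers were left out, and the 45018 spots gave 41174 probes, 27050 of them named through RefSeq accessions. Without that repair the ratios of 4 arrays were strongly compressed. Others were compressed less: the SD of the ratios fell from 0.802 to 0.692 in colon HH replicate 4. In liver LH replicates 1 and 5 it fell from 0.837 to 0.762 and from 0.942 to 0.865. The 2 arrays of 1 HH liver mouse were averaged. Each tissue was fitted as 4 groups with lmFit and eBayes, and tissues were compared in 1 fit of 8 groups with slide as a random block (correlation 0.207). P-values were adjusted over all probes by the method of Benjamini and Hochberg, and pair correlations used 100000 permutations. All tests are two-sided. Differences are the second group minus the first, or liver minus colon.

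Named genes were the 8 members, each represented by its brightest probe, and lists were described by counts and medians. Members and lists were chosen with earlier results of these data known. The labels do not give litters, so p-values measure the spread between these mice. Replicates are numbered by array order, and within a tissue a number equals a slide. Alternatives covered the duplicate arrays, slide and array position as blocks, background and normalisation, a filter on dim probes, the samples in the fit, array weights, the threshold, mice with *Xist* and each mouse left out. Precision is limited by how many mice there are. Protein sequences were not used here. Some results of the list of other folate enzymes are not reported here.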

Additional observations from a re-analysis of the deposited data

Results flagged for a closer look

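In 4 of 88 sets of 5 or 6 mice (4.55%, where chance alone gives about 1 in 20), 1 mouse lay far from the others of its group by Dixon's test. Among them was *Mthfd1l* in the liver of HH replicate 3, at -0.13 against -1.80 to -1.43 in the other 4 HH mice. Both arrays of this mouse gave the high value, and only 0.367% of all probes were as far or farther above the median of the other livers in it. The same mouse was apart for the dimmer *Shmt1* probe, at 1.46 against 1.11 to 1.17 in the other HH livers, which is towards the LH group. For the brighter *Shmt1* probe the colon of LH replicate 3 read -0.73 against -0.60 to -0.53. For *Aldh1l1* the liver of LH replicate 3 read 1.44 against 1.84 to 2.07.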

How the results depend on the processing

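In 21 comparisons the number of the 11 probes that passed the threshold stayed at its main value under every alternative and with each mouse left out (0 in the diet comparisons and in the tissue differences, 11 for liver *vs.* colon), with 1 exception. In liver HH *vs.* LH, 1 probe passed when only the 2 groups compared entered the fit and 1 when all 8 groups entered 1 fit. It was the dimmer *Shmt1* probe in both (adjusted p = 0.0364 and 0.0405, log2 difference 0.74). The 0% of all probes called is that of the main fits. The share of all probes that passed in these 2 fits is not given here, so the call does not set this probe apart. Over all alternatives the difference of this *Shmt1* probe ran from 0.62 to 0.89 and its adjusted p from 0.0364 to 0.454. With slide as a block, its difference was 0.68 (adjusted p = 0.177), and the block changed no call: 0 probes passed in the diet comparisons. The 31 single differences followed were those with an unadjusted p under 0.05 in the main fits, 11 of them liver *vs.* colon. They kept their sign in 1504 of 1504 values. The alternatives refit the same mice after that choice, so a kept sign was likely from the outset and adds no support. The *Shmt1* brighter probe in liver HH *vs.* LH had an unadjusted p over 0.05 without HH replicate 1, HH replicate 3 or LH replicate 6, and its difference ran from 0.29 to 0.40 with each mouse left out. *Mthfd2* in liver HH *vs.* HL ran from -0.62 with processed signals to -0.10 without the background repair. Values with each mouse left out of the 8-group fit used the slide correlation of the full fit.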
